A study of Homo sapiens with 12 samples.

Results

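The recovery of 4 circular RNAs was followed through an IGF2BP2 RNA immunoprecipitation (RIP) in MDA-MB-231, an established triple-negative breast cancer line: hsa_circ_0001359, reported to arise from PHC3 (circPHC3), hsa_circ_0000711, reported to arise from NFATC3 (circNFATC3), hsa_circ_0021570 and hsa_circ_0000992. They are 4 of the 6384 circRNA rows of the deposited count table, which carries identifiers and no host genes. The 4 were chosen by measured values of this table, namely many RIP counts over few IgG counts in each cell line and a RIP level that was alike in the lines. No cut-off values were given for that choice. Their enrichments and their RIP levels are therefore given as descriptions. Where the calls of a fit over all circRNAs are counted for the 4, the counts are printed beside those of all circRNAs and are not read as evidence.

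The study used 12 libraries, 3 in each of 4 groups. Sens cells were the wild-type, untreated MDA-MB-231 cells. Res cells were the same line with established resistance to BET inhibitors (BETi), which block bromodomain and extra-terminal chromatin readers, and they were kept on the inhibitor up to harvest. Resistance and the presence of the drug thus cannot be told apart, and the labels do not say whether Res is a clone or a pool. Lysate of each line was precipitated with an anti-IGF2BP2 monoclonal antibody (RIP) or with normal rabbit IgG, the background control. The labels do not state that replicates were separate cultures, so the spread between them may be technical.

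IGF2BP2 is an RNA-binding protein that carries RNA recognition and KH domains, reads N6-methyladenosine on many of its targets, and is known for raising the stability and translation of messenger RNAs, MYC among them. Circular RNAs are closed loops made by back-splicing of exons. They lack free ends and are long-lived, and some bind proteins in place of the linear transcript. PHC3 encodes a polyhomeotic subunit of Polycomb repressive complex 1, and NFATC3 encodes a calcineurin-regulated transcription factor. The hosts of the other two are not named here.

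Depth was low and differed by antibody. The IgG libraries held between 1960 and 2989 circRNA counts (Sens) and between 3860 and 6036 (Res). The RIP libraries held between 4448 and 5561 (Sens) and between 5179 and 8662 (Res). ERCC spike-in transcripts are synthetic RNAs that were mixed into equal amounts of purified RNA. Of the circRNA plus ERCC counts, they took 97.8% to 97.9% in Sens IgG and 93.5% to 93.8% in Res IgG. In RIP they took 10.6% to 12.4% (Sens) and 7.51% to 10.9% (Res). The counts used here cover circRNAs and ERCC transcripts alone, so these are not shares of all sequenced reads. Levels are given as CPM, counts relative to library size, with the sizes scaled by TMM, a trimmed mean of ratios between libraries. The TMM factors ran from 0.554 to 0.633 in the RIP libraries, from 2.25 to 2.55 in Sens IgG and from 1.10 to 1.28 in Res IgG. Values after ± are SDs over n = 3 libraries.

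Together the 4 circRNAs made up 4.33% ± 0.294 of the circRNA counts in Sens RIP (638 of 14780 counts) and 4.10% ± 0.520 in Res RIP (786 of 19568). With IgG they made up 0.103% ± 0.00259 in Sens (8 of 7794 counts) and 0.274% ± 0.0903 in Res (40 of 15292). Every RIP library held at least 3.66% and no IgG library more than 0.363%. No input library was analysed here, so the abundance of a circRNA in the cells and the part of it bound to IGF2BP2 cannot be told apart.

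hsa_circ_0001359 (circPHC3) had 50, 70 and 45 counts in the Sens RIP libraries and 0 in each Sens IgG library. In Res it had 54, 82 and 47 RIP counts and 1, 1 and 0 IgG counts. RIP and IgG did not overlap in either line, and the RIP counts of the lines overlapped, at 45 to 70 in Sens and 47 to 82 in Res. Its RIP level was 19388 ± 5062 CPM in Sens and 15391 ± 746 in Res. The Sens spread came with 1 high library, replicate 2 at 25228 CPM, beside 16243 and 16694 in the others. The coefficient of variation was 26.1% in Sens RIP, where counting alone gives 13.5%, and 4.85% in Res RIP, where counting alone gives 12.8%.

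hsa_circ_0000711 (circNFATC3) had 58, 36 and 43 counts in Sens RIP and 0 in each Sens IgG library. In Res it had 53, 73 and 73 RIP counts and 2, 3 and 2 IgG counts. Its IgG signal was thus seen in all 3 Res libraries and in none of the Sens libraries. The RIP level was 15923 ± 2934 CPM in Sens and 17474 ± 5073 in Res. Res replicate 3, at 23332 CPM, lay above the other Res RIP libraries, which held 14626 and 14466. The coefficient of variation was 18.4% in Sens RIP and 29.0% in Res RIP, against 14.8% and 12.3% from counting alone.

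hsa_circ_0021570 had the most counts of the 4 in all 6 RIP libraries. It had 88, 88 and 75 counts in Sens RIP and 2 in each Sens IgG library, and 95, 103 and 87 counts in Res RIP against 11, 11 and 9 in Res IgG. It held most of the IgG counts of the 4, 6 of 8 in Sens and 31 of 40 in Res. The RIP level was 29375 ± 2062 CPM in Sens and 24811 ± 3893 in Res. On this scale the lines did not overlap, but only just, since the nearest libraries held 27823 CPM in Sens and 27807 in Res, and they overlapped when scaled by circRNA totals or by ERCC totals.

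hsa_circ_0000992 had the fewest counts of the 4 in all 6 RIP libraries. It had 31, 28 and 26 counts in Sens RIP against 1, 0 and 1 in Sens IgG, and 25, 59 and 35 in Res RIP against 0 in each Res IgG library. It was the only one of the 4 with IgG counts in Sens and none in Res. The RIP level was 9936 ± 252 CPM in Sens and 9926 ± 2633 in Res, so the means nearly coincided while the Res libraries ranged from 6899 to 11692 CPM. The coefficient of variation was 2.53% in Sens RIP and 26.5% in Res RIP, against 18.8% and 15.9% from counting alone.

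**Figure D1:**
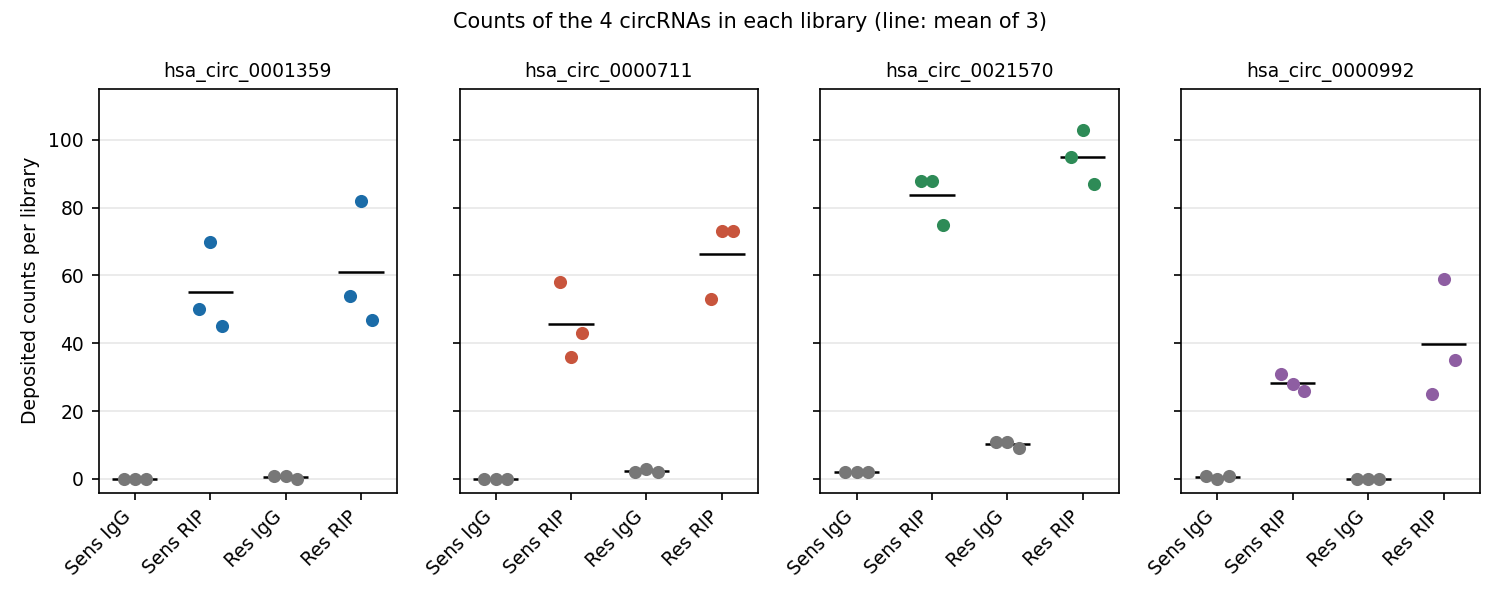
Deposited counts per library (y axis) of each of the 4 circRNAs in the 4 groups (x axis). Points are single libraries, coloured for RIP and grey for IgG, and the line is the mean of 3; all RIP libraries lie between 25 and 103 counts and all IgG libraries between 0 and 11.

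Among all circRNA rows the 4 ranked high with the antibody. By summed RIP counts in Sens, hsa_circ_0021570 ranked 4, hsa_circ_0001359 ranked 6, hsa_circ_0000711 ranked 7 and hsa_circ_0000992 ranked 15. In Res RIP the ranks were 4, 7, 6 and 16 in the same order. In IgG, 475 circRNAs were detected in Sens and 1243 in Res, 7.44% and 19.5% of the 6384 rows. The most frequent summed count of a detected circRNA was 7 over the 3 IgG libraries in both lines, and the median was 12 in Sens and 9 in Res. The Sens IgG sums of the 4, at 0, 0, 6 and 2, all lay below that mode, and so did the Res sums of hsa_circ_0001359 (2) and hsa_circ_0000992 (0). The Res sum of hsa_circ_0000711 equalled it at 7. hsa_circ_0021570, at 31, exceeded it, and only 65 circRNAs had more Res IgG counts. A count of 0 allows a share of up to 0.0385% of the circRNA counts in Sens IgG and 0.0196% in Res IgG (3 counts in the group, counting error only).

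**Figure D2:**
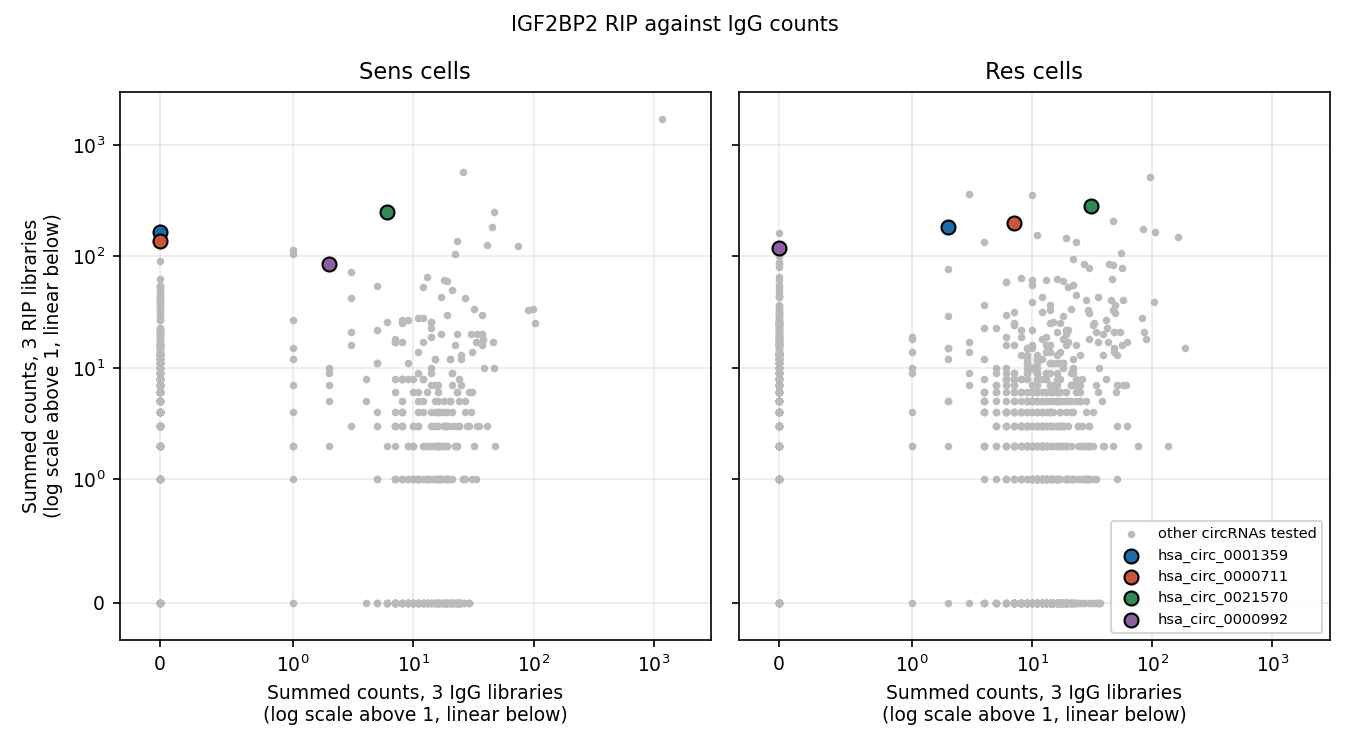
Summed counts of the 3 RIP libraries (y axis) against those of the 3 IgG libraries (x axis) for the tested circRNAs in Sens (left) and Res (right); both axes are logarithmic above 1 and linear below. The 4 coloured circRNAs lie near the top in RIP counts; hsa_circ_0021570 moves from 6 IgG counts in Sens to 31 in Res.

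The first comparison asks how far each circRNA was recovered with the IGF2BP2 antibody above IgG in parental cells. All 4 were higher in Sens RIP, and for 2 of them only a lower bound can be given. On the TMM scale, hsa_circ_0001359 was at least 118-fold higher and hsa_circ_0000711 at least 98.1-fold higher, both computed against 3 counts over the IgG group because their IgG libraries were at 0. hsa_circ_0021570 had a ratio of summed counts of 89.9 (95% exact interval 40.7 to 247). hsa_circ_0000992, with 2 IgG counts, had a ratio of 91.3 (interval 24.5 to 766). Intervals come from summed counts, so they reflect counting error alone and leave out the spread between libraries. They also treat each count as a separate molecule, although amplified copies of a molecule were not marked and can be counted more than once. The bounds take in only the counting error of the IgG group and treat the RIP counts as exact.

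In edgeR's quasi-likelihood fit over the 1307 circRNAs that reached 2 counts in 3 or more libraries, all 4 passed the count filter, which they did through their RIP libraries. The fit called 4 of 4 higher in Sens RIP (Benjamini-Hochberg adjusted p under 0.05), where 39.8% of all tested circRNAs were called higher. The choice of the 4 used this contrast, so nothing is read from the count. The median fitted log2 fold change was 7.81 for the 4 and 2.44 for all tested. The value for all tested was 0.15, 0.61 and 0.19 without Sens RIP replicate 1, 2 and 3 and 0.73 with DESeq2. With the groups at 0 set to their bounds, the median of the 4 was 6.56. The fitted log2 fold change of hsa_circ_0021570 was 6.38 (SE 0.56) and that of hsa_circ_0000992 was 6.21 (SE 0.99).

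In resistant cells all 4 were again higher with the antibody, with 1 of the 4 at 0 counts in IgG. hsa_circ_0001359 had a ratio of 142 (interval 38.6 to 1178 from 183 and 2 counts). hsa_circ_0000711 had 44.0 (interval 21.0 to 111) and hsa_circ_0021570 had 14.2 (interval 9.80 to 21.3). hsa_circ_0000992 was at least 61.4-fold higher. The ratio of hsa_circ_0021570, which had the most RIP counts, was the lowest, and its interval overlapped slightly with that of hsa_circ_0000711. edgeR called 4 of 4 higher in Res RIP, where 33.7% of all tested circRNAs were called higher, and again the choice had used the contrast. The median fitted log2 fold change was 6.11 for the 4, or 5.70 with the group at 0 at its bound, and 0 for all tested. The value for all tested was 1.79, 1.90 and 1.95 without Res IgG replicate 1, 2 and 3, when 986, 983 and 975 circRNAs passed the filter.

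The direction of these ratios did not depend on the scaling, but their size did. Scaled by circRNA totals, the Sens ratios and bounds ran from 22.1 to 29.0 and the Res values from 7.18 to 71.5. Scaled by ERCC totals, they lay between 7511 and 9875 (Sens) and between 1117 and 11120 (Res). The median over all tested circRNAs shifted with the scale. In Sens it was 2.44 on the log2 scale with TMM, 1.84 with circRNA totals and 7.63 with ERCC totals, and in Res it was 0, -0.25 and 6.01. The median of the 4 lay above it on each scale, at 6.45 and 13.70 in Sens and at 5.17 and 12.39 in Res. Calls over all circRNAs split into 520 higher and 134 lower in Sens on the TMM scale, 164 and 269 with circRNA totals and 855 and 0 with ERCC totals. In Res the splits were 440 and 340, 381 and 484, and 877 and 0.

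**Figure D3:**
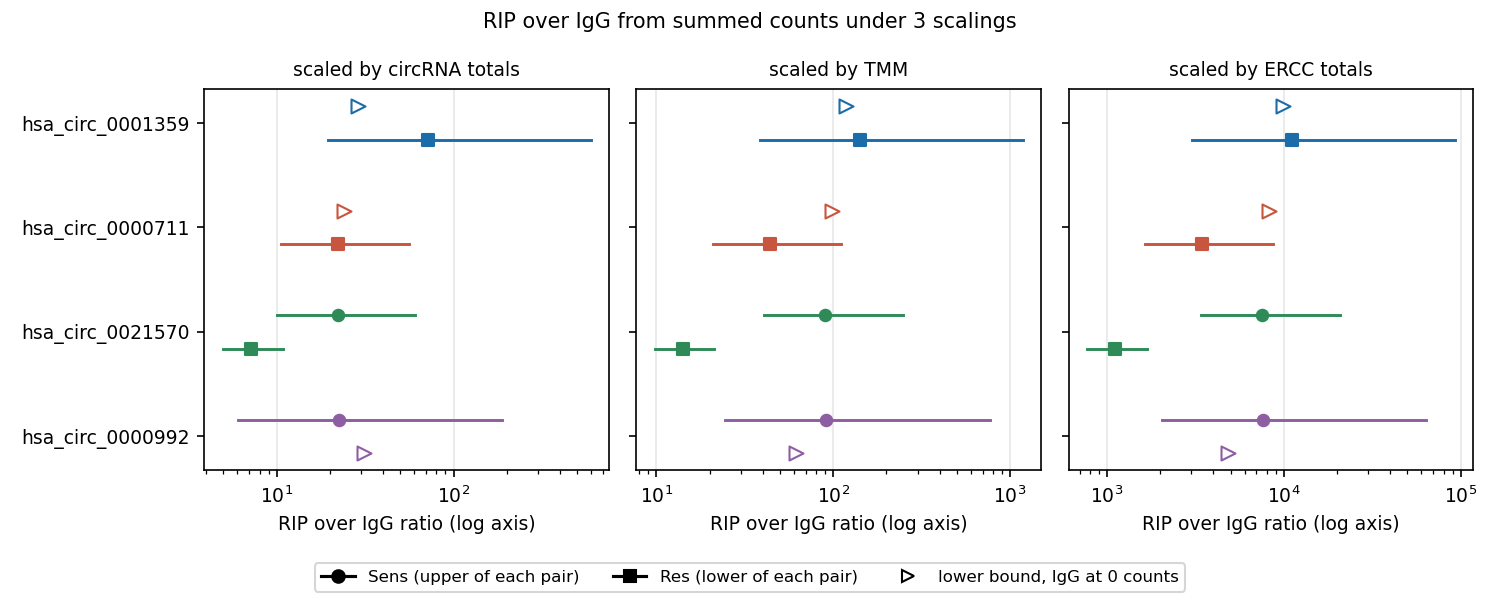
RIP over IgG ratio of summed counts (x axis, logarithmic, a different range in each panel) for the 4 circRNAs (y axis) under 3 scalings, Sens as circles and Res as squares with 95% exact counting intervals; open triangles are lower bounds where IgG was at 0. hsa_circ_0021570 is the lowest Res value in each panel, at 7.18, 14.2 and 1117.

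The next comparison asks whether recovery with the antibody differed between resistant and parental cells. The RIP levels of the 4 were close in the lines, as their choice had required. On the TMM scale the Res to Sens ratio of summed counts was 0.804 for hsa_circ_0001359 (95% exact counting interval 0.648 to 0.998), 1.05 for hsa_circ_0000711 (0.842 to 1.32), 0.823 for hsa_circ_0021570 (0.692 to 0.979) and 1.01 for hsa_circ_0000992 (0.761 to 1.36). The fit takes its errors from a spread between libraries pooled over circRNAs, not from that of each circRNA. It gave log2 fold changes of -0.33 (SE 0.23), 0.11 (SE 0.23), -0.25 (SE 0.21) and 0.01 (SE 0.27). Its 95% intervals for the ratio were 0.585 to 1.09, 0.789 to 1.48, 0.635 to 1.11 and 0.694 to 1.46 in the same order, so the fit does not show the levels to be equal.

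edgeR called 0 of 4 between the RIP groups, where 1.30% of all tested circRNAs were called higher in Res and 1.07% lower. DESeq2 called 0 of 4, and 15 higher and 4 lower of all 1307 tested. The choice of the 4 used this contrast, so nothing is read from these counts. The median log2 fold change was -0.12 for the 4 and 0 for all tested. Per 1000 ERCC counts the RIP level of hsa_circ_0001359 was 84.7 ± 19.1 in Sens and 99.6 ± 20.3 in Res, and that of hsa_circ_0000711 was 70.2 ± 14.9 and 114 ± 44.5. hsa_circ_0021570 had 129 ± 13.3 and 159 ± 31.1, and hsa_circ_0000992 had 43.7 ± 4.73 and 65.9 ± 26.3. On this scale all 4 means were higher in Res, by 1.18-fold to 1.63-fold, while the RIP libraries of the lines overlapped for each. The median of all tested circRNAs moved from 0 to 0.39 there, beside 0.44 for the 4. ERCC totals gave 51 circRNAs called higher and 7 lower, TMM 17 and 14.

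**Figure D4:**
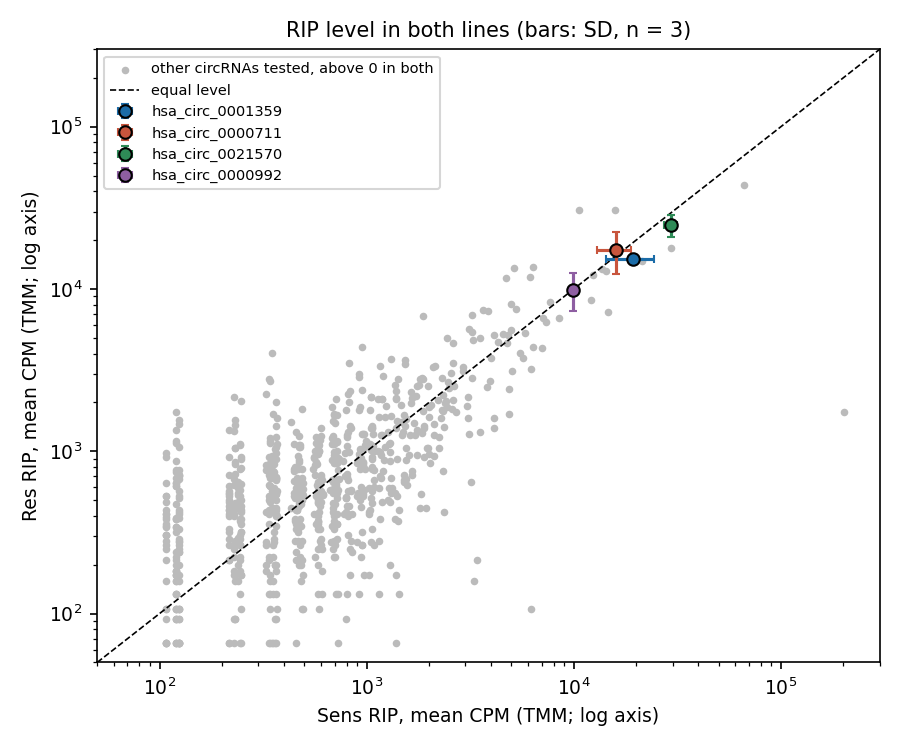
Mean CPM in Res RIP (y axis) against Sens RIP (x axis), both logarithmic, for circRNAs detected in both; coloured points are the 4 circRNAs with SDs over 3 libraries, and the dashed line marks equal levels. The 4 lie close to the line, between 9936 and 29375 CPM in Sens.

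The make-up of the 4 in a RIP library was alike in the lines, which follows from the choice of circRNAs with like RIP levels. hsa_circ_0021570 took 39.4% ± 0.493 of their counts in Sens and 36.8% ± 4.75 in Res, and hsa_circ_0000992 took 13.4% ± 0.666 and 14.7% ± 3.80. hsa_circ_0001359 took 25.8% ± 5.05 and 23.0% ± 3.32, and hsa_circ_0000711 took 21.5% ± 4.83 and 25.5% ± 4.07. hsa_circ_0021570 stood first and hsa_circ_0000992 last in each of the 6 libraries. The order of the other two changed between libraries, with hsa_circ_0000711 ahead in Sens replicate 1 and Res replicate 3 and hsa_circ_0001359 ahead in the other 4, so these neighbours had no fixed order. All of these are shares of counts, not corrected for the length of each circRNA.

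**Figure D5:**
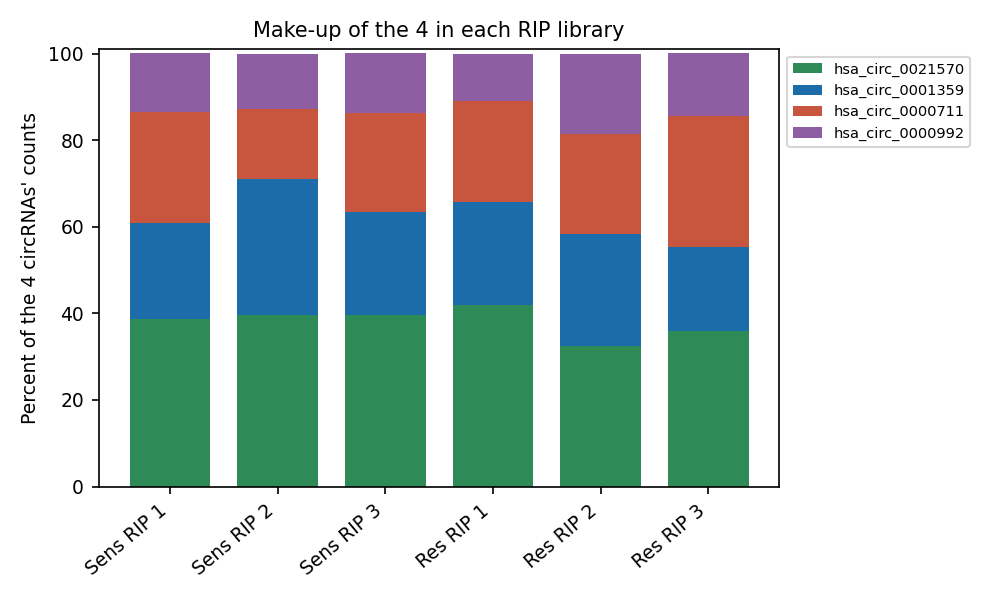
Percent of the summed counts of the 4 circRNAs (y axis) taken by each in the 6 RIP libraries (x axis). hsa_circ_0021570 takes 32.5% to 41.9% and hsa_circ_0000992 takes 11.0% to 18.6% in each library.

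The IgG levels were less alike between the lines than the RIP levels for hsa_circ_0021570. Its IgG level was 333 ± 59.5 CPM in Sens and 1766 ± 509 in Res, a ratio of summed counts of 5.20 (95% exact counting interval 2.14 to 15.2), and the groups did not overlap. The ratio was 2.63 (1.08 to 7.72) with circRNA totals and 8.12 (3.34 to 23.8) with ERCC totals. hsa_circ_0000711 went from 0 IgG counts in Sens to 394 ± 117 CPM in Res. Against 3 counts set for the Sens group, the ratio was 2.35, or 1.19 with circRNA totals and 3.67 with ERCC totals. These ratios leave out the counting error of the 7 Res counts, so they are no lower limits. For hsa_circ_0001359 and hsa_circ_0000992 both IgG groups held fewer than 3 counts, and no fold is given. Over all 6384 rows, 475 circRNAs were detected in Sens IgG and 1243 in Res IgG. Res IgG counts beside 0 in Sens IgG were thus not particular to hsa_circ_0000711. A change of IgG level between the lines was not fitted over all circRNAs, so no share of such changes stands beside these ratios. The part of depth and of ERCC content in the IgG differences was not tested.

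The change of enrichment between the lines was fitted as an interaction. It was called lower in Res for 2 of the 4, hsa_circ_0021570 and hsa_circ_0000711, where 13.4% of all tested circRNAs were called lower and 5.59% higher. The log2 change was -2.55 for hsa_circ_0021570 (SE 0.64), from a ratio of 89.9 in Sens to 14.2 in Res. For hsa_circ_0000711 the ratio went from at least 98.1 to 44.0, and its call was lost with DESeq2, with circRNA totals, without a count filter, and without any 1 of the Sens IgG libraries, Res IgG replicate 2 or Sens RIP replicate 1. The call of hsa_circ_0021570 held in all 19 settings. The median log2 change was -2.62 for the 4 and -1.32 for all tested, and the latter turned to 0.08, 0.13 and 0.17 without Res IgG replicate 1, 2 and 3. Over all circRNAs the calls split into 73 higher and 175 lower, or 108 and 106 with circRNA totals. The enrichments were used to choose the 4, so these values too are descriptions.

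The submitters' own measure is the difference of RIP minus IgG between lines, in RPM, reads relative to library size, taken here over the circRNA counts of a library. A negative value was their mark for weaker association in resistant cells. hsa_circ_0021570 went from 16246 RPM above IgG in Sens to 12966 in Res, a delta of -3280 (SE 1821). hsa_circ_0001359 went from 11260 to 9175, a delta of -2085 (SE 1743). hsa_circ_0000711 had a delta of 910 (SE 1968) and hsa_circ_0000992 of 444 (SE 820). Single libraries weighed heavily: the delta of hsa_circ_0000711 was -842 without Res RIP replicate 3, that of hsa_circ_0001359 was -379 without Sens RIP replicate 2, and that of hsa_circ_0021570 was -1679 without Res RIP replicate 2. The choice of the 4 used the values that make up these deltas, so the deltas are descriptions and are held to no threshold. A denominator of circRNA plus ERCC counts gave -1439 (SE 1501) for hsa_circ_0001359 and -1418 (SE 1532) for hsa_circ_0021570. It gave 1502 (SE 1831) for hsa_circ_0000711 and 386 (SE 796) for hsa_circ_0000992. In CPM with TMM, a scale added after the data were seen, the delta of hsa_circ_0021570 was -5997 (SE 2561). On that scale the deltas of hsa_circ_0001359, hsa_circ_0000711 and hsa_circ_0000992 were -4121 (SE 2955), 1158 (SE 3384) and 89.9 (SE 1528). In RPM, 58.5% of the tested circRNAs had a delta below 0. Per 1000 ERCC counts all 4 deltas were above 0, at 14.9 (SE 16.1), 44.0 (SE 27.1), 29.6 (SE 19.5) and 22.2 (SE 15.4) for hsa_circ_0001359, hsa_circ_0000711, hsa_circ_0021570 and hsa_circ_0000992, and 37.9% of the tested circRNAs were below 0. The sign for hsa_circ_0001359 and hsa_circ_0021570 thus depended on the scale.

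The 4 were placed among the 16 circRNAs with at least 204 summed RIP counts, the number that hsa_circ_0000992 had. No upper limit was set. The 16 ran from 204 to 1744 RIP counts and the 4 held 348, 336, 536 and 204, so abundance was not matched. The 12 others held 0 to 1199 IgG counts over both lines, with a median of 89.5, and the 4 held 2, 7, 37 and 2, with a median of 4.5. Of the 12, 3 had no more IgG counts than hsa_circ_0021570, so few IgG counts were not limited to the 4. The absolute log2 change between the RIP groups ran from 0.01 to 0.33 among the 4 and from 0.00 to 6.86 among the 12, with medians of 0.18 and 0.66. In order of the smallest change, the 4 took places 2, 4, 6 and 7 of 16. The choice used these values, so their position is a description.

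The profiles of the 4 over the libraries were much alike because all separate RIP from IgG, as their choice had required. Pearson's r between pairs of the 4, on log2 CPM over 12 libraries, was 0.951 to 0.990. Within the 6 RIP libraries it was -0.576 to 0.506, with no common pattern, and these points share depth and scaling. The circRNAs most like the 4 over 12 libraries were hsa_circ_0024085 (mean r 0.986) and hsa_circ_0001360 (mean r 0.984). They were 2 of the 96 with a mean r over 0.9, among 1307 tested circRNAs with the 4 included. hsa_circ_0024085 had 14, 11 and 12 counts in Sens RIP and 14, 23 and 18 in Res RIP. hsa_circ_0001360 had 14, 15 and 12 counts in Sens RIP and 21, 27 and 14 in Res RIP. Both had 0 counts in all 6 IgG libraries. Within the 6 RIP libraries their mean r with the 4 was 0.245 and -0.314, so the likeness lay in the step between antibodies.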

How the data were processed

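Per the labels' protocols, the authors precipitated RNA with an IGF2BP2 antibody or rabbit IgG, added ERCC spike-in to equal amounts of purified RNA, and scaled their analysis with RUVSeq. The deposited table holds raw counts without that scaling, for 6384 circRNAs and 57 ERCC transcripts. The build was GRCh37, per the submitters' processing notes; the aligner, circRNA caller and counting rule are not given in the sources used here. Columns were matched to samples by library name. The 4 circRNAs and all settings were chosen with earlier results of these data known.

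ERCC rows stayed out of library sizes and tests and served as an alternative scale, since RUVSeq was not available in the software used. Counts were fitted with edgeR 4.0.16 (R 4.3.3; TMM, quasi-likelihood, all 12 libraries, 1 coefficient per group) on circRNAs that reached 2 counts in 3 or more libraries. The fit shrank every estimate of spread fully to the common value (infinite prior degrees of freedom). SEs came from the fit's information matrix, with none where a group was at 0, and intervals of summed-count ratios from exact binomial intervals at 95%. The script was tested on simulated data. The variance between replicate pairs was 1.29 to 1.84 times that of counting noise. This cannot tell separate cultures from splits of 1 sample, and the replicates were kept as separate libraries. Named circRNAs are the 4 and the 2 with the highest mean Pearson correlation with them (log2 CPM, prior count 2). Alternatives were DESeq2 1.42.0, other scalings and filters, a replicate block, the libraries of a comparison alone, and leaving out each library. No file used here holds the sequences or positions of the circRNAs.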

Additional observations from a re-analysis of the deposited data

Results flagged for a closer look

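The interaction term of the fit was called for hsa_circ_0000711 and hsa_circ_0021570, with log2 changes of enrichment of -3.85 and -2.55 in Res against Sens. Both were chosen on the enrichments that enter this term, so the calls are descriptions, and that of hsa_circ_0000711 held in 11 of 19 settings. The value of hsa_circ_0000711 is no bound, since its Sens IgG libraries were at 0. Beside these changes, IgG counts went from 0 to 7 and from 6 to 31, and RIP counts from 137 to 199 and from 251 to 285. The number of circRNAs detected in IgG, 407 to 441 per library in Sens and 1039 to 1138 in Res, moved the same way, and its part in the result was not tested.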

How the results depend on the processing

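In all 20 settings, the main one included, the 4 circRNAs were called higher than IgG in both lines. None was called between the RIP groups in any of them. Their choice used these contrasts, so nothing is read from these counts. In Sens, 520 of 1307 tested were called higher in the main setting, 317 of 6384 unfiltered and 855 of 1307 with ERCC totals. In Res the numbers were 440, 376 and 877. Between the RIP groups, the main setting called 17 higher and 14 lower. At least 10 counts in 3 libraries gave 11 and 11 of 111. The median log2 fold change of the 4 over IgG was 7.81 in Sens and 6.11 in Res. It was 6.45 and 5.17 with circRNA totals, 13.70 and 12.39 with ERCC totals, 6.49 and 5.55 with DESeq2, and 6.47 and 4.81 with at least 10 counts in 3 libraries. With the Sens libraries alone it was 7.39. Leaving out 1 library gave 5.49 (without Res IgG replicate 3) to 6.27 in Res. Between the RIP groups the median was -0.12, and 0.44 with ERCC totals. It was 0.17 with DESeq2, 0.08 without a filter and -0.27 with at least 10 counts in 3 libraries. Leaving out 1 library gave -0.145 to 0.253, so its sign was not fixed. Of the 4, 2 were called for the change of enrichment, and 1 with circRNA totals, DESeq2 or no filter; leaving out 1 library gave 1 to 2. The delta of hsa_circ_0000711 turned to -842 RPM without Res RIP replicate 3, that of hsa_circ_0001359 shrank to -379 without Sens RIP replicate 2, and that of hsa_circ_0000992 was 27.5 without Res RIP replicate 2 and 1251 without Res RIP replicate 1. Per 1000 ERCC counts the deltas were 14.9, 44.0, 29.6 and 22.2. The cause was not tested.

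Calls over all circRNAs numbered 654 for Sens enrichment, 780 for Res enrichment, 31 between the RIP groups and 248 for the change of enrichment. DESeq2 gave 235, 234, 19 and 120. At least 10 counts in 3 libraries, which left 111 tested, gave 86, 88 and 57 for the enrichments and their change. No filter gave 380, 17 and 116 for Sens, RIP and the change; circRNA totals gave 433 for Sens and ERCC totals 58 for RIP. Leaving out 1 library gave at least 372, 398, 16 and 163, without Sens IgG replicate 1, Res IgG replicate 3, Sens RIP replicate 3 and Sens IgG replicate 3. With the replicate number as a block (replicate block) the median of the 4 was 7.83 in Sens and 6.12 in Res, and calls between the RIP groups fell from 31 to 17. Deviations of same-numbered libraries correlated at -0.028 to 0.050, so the numbers were not taken as pairs.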
